A study of Mus musculus with 14 samples.

Results

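The genes described here form the interferon-gamma axis in the mouse colon: the cytokine gene Ifng, the receptor genes Ifngr1 and Ifngr2, the transcription factor gene Irf1, the chemokine genes Cxcl9, Cxcl10 and Cxcl11, their receptor gene Cxcr3, and Ido1. They were chosen by name, and a probe belonged to a gene when its RefSeq accession mapped to that gene. This gave 11 probes for 8 of the 9 genes, among 41174 probes and 19096 gene symbols on the array. No accession matched Cxcl11, which the RefSeq gene table lists as a transcribed pseudogene, and no value is given for it.

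RNA from the whole colon of 14 female C57BL/6 mice aged 4 to 6 months was measured, with 1 mouse per 1-colour Agilent array. Flox mice (GR fl/fl) carry loxP sites in the glucocorticoid receptor (GR) gene Nr3c1 and were the controls. GR iKO mice carry the same floxed alleles and Villin-cre, a transgene expressed in the intestinal epithelium, so the gene is lost there from development onwards and kept in immune and stromal cells. Mice of both genotypes drank regular water (n = 4 Flox and n = 4 GR iKO) or water with 2.5% dextran sulfate sodium (DSS) for 7 days, a chemical that damages the colon lining and sets off acute colitis (n = 3 Flox and n = 3 GR iKO).

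Interferon-gamma is made mainly by T lymphocytes and natural killer (NK) cells. It binds a receptor built from the IFNGR1 and IFNGR2 chains, which activates the kinases JAK1 and JAK2. Signalling through these kinases acts on GAS elements and switches on Irf1, whose protein binds ISRE elements in further target genes. Among these targets are the chemokine genes Cxcl9, Cxcl10 and Cxcl11, whose products attract activated T and NK cells through CXCR3, and Ido1, whose product turns tryptophan into kynurenine.

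A level is the log2 processed intensity minus that of the 75th percentile of its array, so 0 marks a bright probe, and levels were compared between mice only within a probe. The 75th percentile lay between 262 and 1003 intensity units and was lowest in Flox DSS replicate 4, and the share of probes well above background was 62.6% to 71.3%. Arrays of DSS-treated mice varied more, with a median SD per probe of 0.26 in Flox and 0.34 in GR iKO against 0.18 and 0.17 on water, so tests gave them less weight. Nr3c1 was lower on every GR iKO array (0.19 to 0.57) than on every Flox array (1.05 to 1.46). All 12 epithelial markers were well above background on every array. Tests were made with limma, with p values adjusted over 29523 probes by the Benjamini-Hochberg method, and a probe counted as called below an adjusted p of 0.05. The p values measure the spread between these mice.

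To show the regulatory sequence next to the values, the 250 bases before the start of transcription are printed for the cytokine, the transcription factor and both measured chemokines, from RefSeq (build GRCm38.p6), 5′ to 3′ on the strand of the gene. Capitals mark matches to 3 motifs searched on both strands: GAS (TTCNNNGAA), ISRE (GAAA, NN and GAAA without a gap) and the NF-kB motif, whose factor drives many inflammatory genes.

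Ifng, chr10:118440796-118441045, plus strand: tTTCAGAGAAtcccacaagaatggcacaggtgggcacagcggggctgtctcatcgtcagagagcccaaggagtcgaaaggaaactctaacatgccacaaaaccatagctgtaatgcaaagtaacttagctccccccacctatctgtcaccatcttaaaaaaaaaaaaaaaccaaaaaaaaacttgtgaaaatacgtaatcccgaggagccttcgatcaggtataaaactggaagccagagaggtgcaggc

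Irf1, chr11:53769764-53770013, plus strand: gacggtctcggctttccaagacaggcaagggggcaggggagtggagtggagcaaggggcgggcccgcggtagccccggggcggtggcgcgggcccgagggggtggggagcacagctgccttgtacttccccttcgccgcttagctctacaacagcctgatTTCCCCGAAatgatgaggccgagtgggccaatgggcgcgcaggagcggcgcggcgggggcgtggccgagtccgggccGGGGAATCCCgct

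Cxcl9, chr5:92328080-92328329, minus strand: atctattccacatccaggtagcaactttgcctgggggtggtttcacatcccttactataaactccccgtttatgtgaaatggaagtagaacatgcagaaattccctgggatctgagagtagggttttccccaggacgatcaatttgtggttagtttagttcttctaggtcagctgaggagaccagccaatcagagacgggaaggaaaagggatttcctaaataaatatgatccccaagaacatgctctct

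Cxcl10, chr5:92348890-92349139, minus strand: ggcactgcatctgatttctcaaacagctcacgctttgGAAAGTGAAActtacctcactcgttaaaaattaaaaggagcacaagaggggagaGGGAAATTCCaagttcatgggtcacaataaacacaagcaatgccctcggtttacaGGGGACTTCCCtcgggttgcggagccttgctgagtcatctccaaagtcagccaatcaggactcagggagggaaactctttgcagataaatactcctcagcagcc

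The Cxcl10 window held 1 ISRE match, from -213 to -204 relative to the start, and NF-kB matches from -159 to -150 and, overlapping each other, from -104 to -94. The Irf1 window held a GAS match from -90 to -82 and an NF-kB match from -13 to -4, which read the same motif on both strands. The Ifng window held a GAS match from -249 to -241. In the Cxcl9 window these letters did not occur. Among all 32851 windows of this length in the table, 7.02% held a GAS match, 2.98% an ISRE match and 7.25% an NF-kB match. The table had windows for 7 of the 9 genes, and of the others, Ifngr2 held an NF-kB match from -75 to -66, whereas Ifngr1, Cxcr3 and a second Irf1 start held none of the 3 motifs. A match is a description of the letters only.

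DSS raised Ifng from background to a clear signal in both genotypes. With its brighter probe, the 4 Flox mice on water had levels of -6.74, -6.54, -7.48 and -5.96, all not well above background, and the 3 DSS-treated Flox mice (replicates 1, 2 and 4) had 1.29, -1.12 and -2.24. The GR iKO mice on water had levels of -6.54, -6.78, -5.99 and -5.27, of which only the last was well above background, and the DSS-treated GR iKO mice (replicates 1, 3 and 4) had 1.51, 0.37 and 2.87. Every DSS array lay above every water array of its genotype, while the DSS groups overlapped because Flox replicate 1 lay within the range of the GR iKO mice. Since the water level was only a bound, Ifng was at least 40.0-fold higher on DSS in Flox (adjusted p = 8.71e-05, limma). In GR iKO the log2 difference was 7.73 (SE 0.78, adjusted p = 2.77e-05, limma), from a water group mostly at background.

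The second Ifng probe behaved alike. It was not well above background in any mouse on water, with levels of -8.16 to -7.48, and reached -0.49, -3.06 and -3.54 in DSS-treated Flox and 0.37, -0.77 and 1.55 in DSS-treated GR iKO. By this probe the DSS level was at least 12.5-fold higher than on water in Flox (adjusted p = 1.89e-05) and at least 75.1-fold higher in GR iKO (adjusted p = 3.1e-06, limma). In bulk RNA of a whole colon, more cells that express a gene and more RNA per cell cannot be told apart, for Ifng and for each gene that follows.

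**Figure D1:**
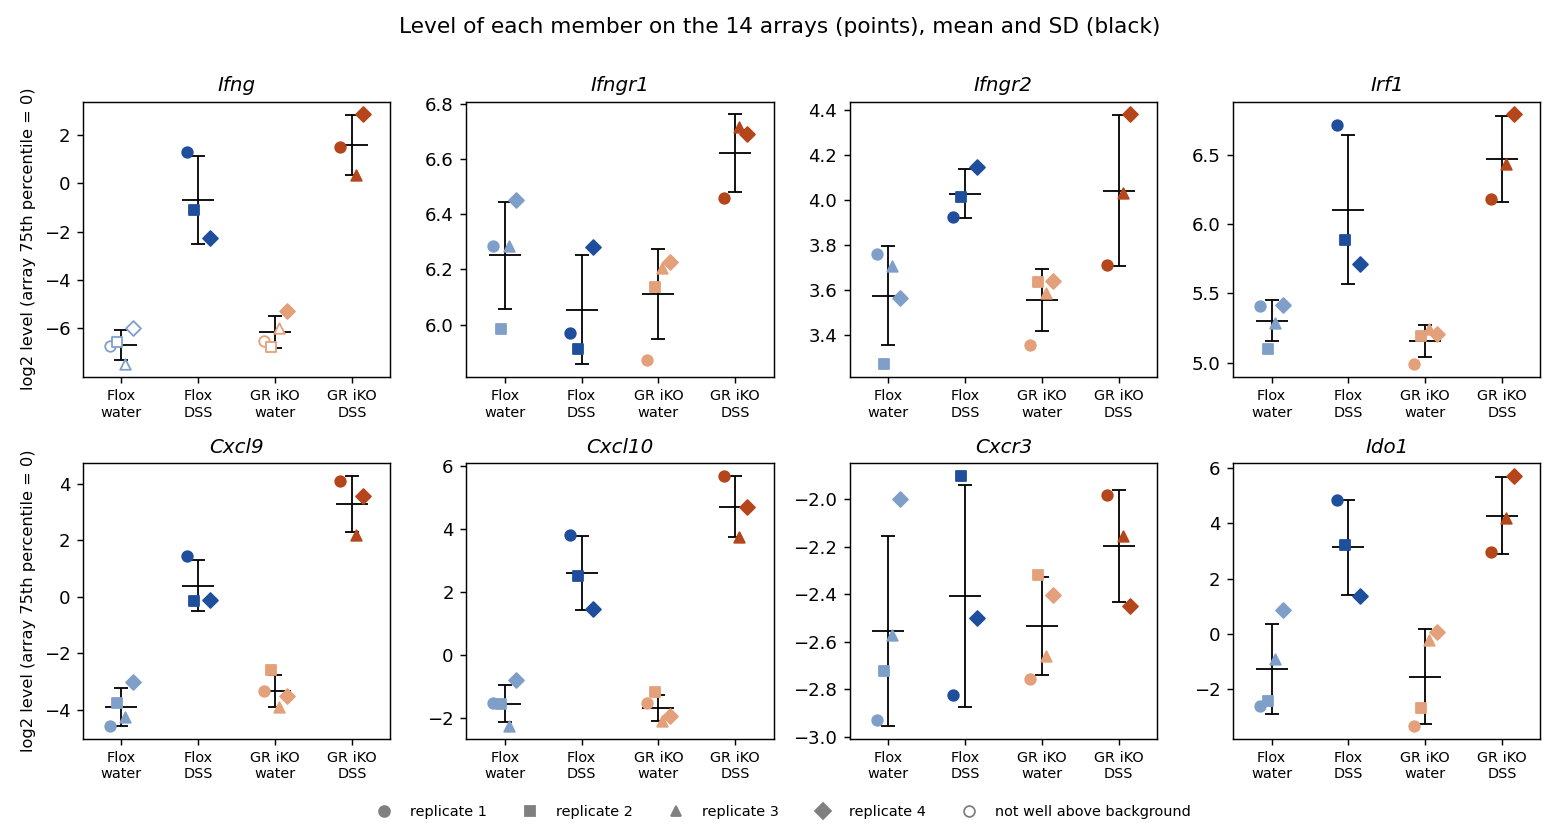
Log2 level (vertical axis, 75th percentile of the array = 0) of the 8 measured genes, 1 probe per gene, in the 4 groups (horizontal axis). Each point is 1 mouse, its shape gives the replicate number, open points were not well above background, and black marks give mean and SD. Ifng, Cxcl9, Cxcl10 and Ido1 moved by several log2 units with DSS, whereas Ifngr1, Ifngr2 and Cxcr3 spanned at most 1.11 log2 units over all 14 mice.

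With the brightest probe standing for each of the 8 genes measured, 5 were called higher on DSS in Flox (Ifng, Irf1, Cxcl9, Cxcl10 and Ido1) and 6 in GR iKO (the same and Ifngr1), and none was called lower. The background was high, since DSS changed much of the transcriptome: 47.2% of all tested probes were called in Flox and 38.9% in GR iKO. In the upward direction alone these shares were 21.8% and 19.1%. The median log2 difference of the 8 genes was 2.47 in Flox and 3.56 in GR iKO, against -0.09 and -0.02 over all tested probes. Without Flox DSS replicate 1, the mouse with the highest Ifng, Irf1, Cxcl9, Cxcl10 and Ido1 levels of its group, 3 genes were called in Flox (Ifng, Cxcl9 and Cxcl10). Leaving out this mouse also lowered the calls over all 29523 tested probes, from 13949 to 9190. Directions are relative to the bulk of each array: when arrays were scaled to their spike-in spots instead, the median of all probes moved to -2.38 in Flox and -0.93 in GR iKO, and Ifng, Cxcl9, Cxcl10 and Ido1 stayed above 0 in both genotypes, whereas Irf1 in Flox did not.

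Ifngr1, which encodes the ligand-binding chain, had levels of 6.28, 5.98, 6.29 and 6.45 in Flox and 5.87, 6.14, 6.20 and 6.23 in GR iKO on water. On DSS the levels were 5.97, 5.91 and 6.28 in Flox and 6.46, 6.71 and 6.69 in GR iKO. Flox mice on DSS thus lay within the pooled range of all untreated mice, although replicates 1 and 2 lay below every Flox mouse on water. The DSS-treated GR iKO mice lay above all other arrays. The DSS difference was -0.20 in Flox (SE 0.18, adjusted p = 0.4) and 0.51 in GR iKO (SE 0.18, adjusted p = 0.0421, limma). The GR iKO call was lost in 8 of 26 alternative settings, 7 of which left out 1 mouse, and the difference turned to -0.40 when arrays were scaled to their spike-in spots.

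Ifngr2, which encodes the signalling chain, was measured by a pair of probes that disagreed. By the brighter probe, levels on water were 3.27 to 3.76 in Flox and 3.35 to 3.64 in GR iKO, and on DSS 3.93, 4.01 and 4.14 in Flox and 3.71, 4.03 and 4.38 in GR iKO. The DSS arrays lay above the water arrays in both genotypes, but the differences of 0.45 (adjusted p = 0.0752) and 0.48 (adjusted p = 0.0683, limma) did not pass the threshold. By the dimmer probe Ifngr2 fell by 1.16 in Flox (SE 0.18, adjusted p = 0.000295), with levels of 0.37 to 0.57 on water and -0.79, -0.68 and -0.67 on DSS, and in GR iKO the difference was -0.45 (adjusted p = 0.0701, limma). Which transcripts each probe detects was not determined here, so no direction is given for this gene. Of the 4 other interferon receptor genes, Ifnar2 rose in both genotypes (1.65 and 1.65), as did Ifnlr1 (0.59 and 0.73), and Il10rb rose in GR iKO (0.41). With spike-in scaling none of the 4 was called higher, and their Flox median was -1.92. Without Flox DSS replicate 1, 1 of the 4 was called in Flox.

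Irf1, the transcription factor that carries the signal to secondary targets, rose in both genotypes by its brighter probe. Its levels were 5.41, 5.10, 5.29 and 5.41 in Flox and 4.99, 5.19, 5.24 and 5.21 in GR iKO on water, and 6.72, 5.89 and 5.71 in Flox and 6.18, 6.44 and 6.80 in GR iKO on DSS. No DSS array overlapped a water array. The log2 difference was 0.80 in Flox (SE 0.21, adjusted p = 0.00822) and 1.31 in GR iKO (SE 0.21, adjusted p = 0.000562, limma). The Flox value was 0.50 (adjusted p = 0.0991) without DSS replicate 1, and it was -1.49 with scaling to spike-in spots, where the median probe stood at -2.38. The dimmer probe, with levels of 1.03, -0.06 and -0.52 on DSS against 0.35 to 0.57 on water in Flox, gave -0.33 (adjusted p = 0.325), and in GR iKO it rose by 0.80 (adjusted p = 0.0302, limma).

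Of the 12 tested genes of interferon-gamma signalling and its brakes, 6 rose and 1 fell in Flox, and 8 rose and none fell in GR iKO. Over all probes, 47.2% and 38.9% were called in either direction. The largest changes were in Socs3 (4.53 in Flox and 5.22 in GR iKO) and Socs1 (2.91 and 3.76), which encode feedback inhibitors of JAK signalling. Stat2 rose by 1.97 and 2.01. Ptpn6, which encodes the phosphatase SHP-1, fell by 0.55 in Flox and differed by 0.31 in GR iKO (adjusted p = 0.145). The medians of this list were 0.33 in Flox and 0.78 in GR iKO, and -1.96 and -0.13 with spike-in scaling, above those of all probes in both cases. That scaling turned the Flox balance, with 1 gene called higher and 8 lower, and gave 4 higher and 0 lower in GR iKO.

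Cxcl9 and Cxcl10, the chemokine genes measured, rose in both genotypes, with every DSS array above every water array. Cxcl9 had levels of -4.56, -3.76, -4.23 and -3.00 in Flox and -3.34, -2.58, -3.90 and -3.51 in GR iKO on water. On DSS they were 1.43, -0.14 and -0.12 in Flox and 4.10, 2.19 and 3.57 in GR iKO. The 4 groups formed a low pair and a high pair, and within the DSS pair every GR iKO mouse lay above every Flox mouse. Cxcl9 was 19.4-fold higher on DSS in Flox (log2 difference 4.28, SE 0.62, adjusted p = 0.000174) and 98.5-fold higher in GR iKO (6.62, SE 0.62, adjusted p = 1.71e-05, limma).

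Cxcl10, whose window above holds the ISRE and NF-kB matches, had levels of -1.54, -1.57, -2.26 and -0.81 in Flox and -1.53, -1.16, -2.10 and -1.93 in GR iKO on water. The DSS-treated mice had 3.82, 2.51 and 1.47 in Flox and 5.69, 3.74 and 4.69 in GR iKO. Here Flox replicate 1 lay above the lowest GR iKO mouse, so the DSS groups overlapped at that point only. Cxcl10 was 17.7-fold higher on DSS in Flox (4.14, SE 0.58, adjusted p = 0.000143) and 83.8-fold higher in GR iKO (6.39, SE 0.58, adjusted p = 1.45e-05, limma). Within single slides, each of which held 1 mouse of every group it carried, the DSS difference of Cxcl10 was 2.28 to 5.36 in Flox and 5.85 to 7.22 in GR iKO, and that of Cxcl9 was 2.88 to 5.99 and 6.09 to 7.44.

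Cxcr3, the receptor of both chemokines, did not pass the test in any comparison with the main scaling (with spike-in scaling it stood at -2.15 in Flox, near the median of all probes). Its levels were -2.93, -2.72, -2.57 and -2.00 in Flox and -2.75, -2.32, -2.66 and -2.40 in GR iKO on water, and -2.82, -1.90 and -2.50 in Flox and -1.98, -2.15 and -2.45 in GR iKO on DSS. The 4 groups overlapped. The DSS difference was 0.15 in Flox (95% confidence interval -0.52 to 0.81) and 0.34 in GR iKO (-0.33 to 1.00). A list of 4 other genes was set beside the CXCR3 chemokines. Of these, Dpp4, which encodes a peptidase that trims and inactivates such chemokines, fell by 1.85 in Flox and by 1.43 in GR iKO. Ackr1, which encodes an atypical chemokine receptor of venules and red cells, rose by 2.22 and 2.18. Ackr3 and Pf4 were not called.

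Ido1 had the widest spread of the 8 genes among untreated mice (SD 1.62 for Flox, 1.72 for GR iKO). On water its levels were -2.60, -2.43, -0.89 and 0.87 in Flox and -3.32, -2.68, -0.20 and 0.07 in GR iKO. On DSS they were 4.83, 3.20 and 1.38 in Flox and 2.95, 4.18 and 5.72 in GR iKO. The DSS arrays lay above the water arrays, though Flox DSS replicate 4 exceeded Flox water replicate 4 by only 0.51. Ido1 rose by 4.40 in Flox (SE 1.49, adjusted p = 0.0283) and by 5.81 in GR iKO (SE 1.49, adjusted p = 0.00871, limma). The Flox value was 3.56 (adjusted p = 0.182) without Flox DSS replicate 1, 4.37 (0.107) without Flox DSS replicate 2 and 4.01 (0.058) without Flox water replicate 2, and the GR iKO value was 5.10 (adjusted p = 0.0581) without GR iKO DSS replicate 4.

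A further list held the rest of the kynurenine pathway together with Ahr, Cyp1a1, Cyp1b1, Tiparp and Wars. Of its 13 tested genes, 4 rose and 3 fell in Flox, and 4 rose and 4 fell in GR iKO. Over all probes, 47.2% and 38.9% were called in either direction. Cyp1a1 and Tiparp were not called in either genotype. Ido2, the paralog of Ido1, rose by 2.03 and 2.70, and Wars, which encodes the interferon-inducible tryptophanyl-tRNA synthetase, by 0.86 and 1.32. Qprt, for the enzyme that leads to NAD, rose by 1.58 and 1.30, and Cyp1b1, a target of the aryl hydrocarbon receptor, by 3.78 and 3.57, with at least a 4.20-fold rise in GR iKO, where its water level was a bound. Kyat1 (by 2.35 and 1.66) and Kyat3 (by 0.84 and 1.41), the genes of the kynurenine aminotransferases, and Afmid (by 0.70 and 0.69), for the formamidase after IDO1, fell in both genotypes. Ahr, the receptor gene itself, fell by 0.42 in GR iKO. With spike-in scaling 0 of the 13 were called higher and 9 lower in Flox, where their median of -2.10 lay close to that of all probes.

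**Figure D2:**
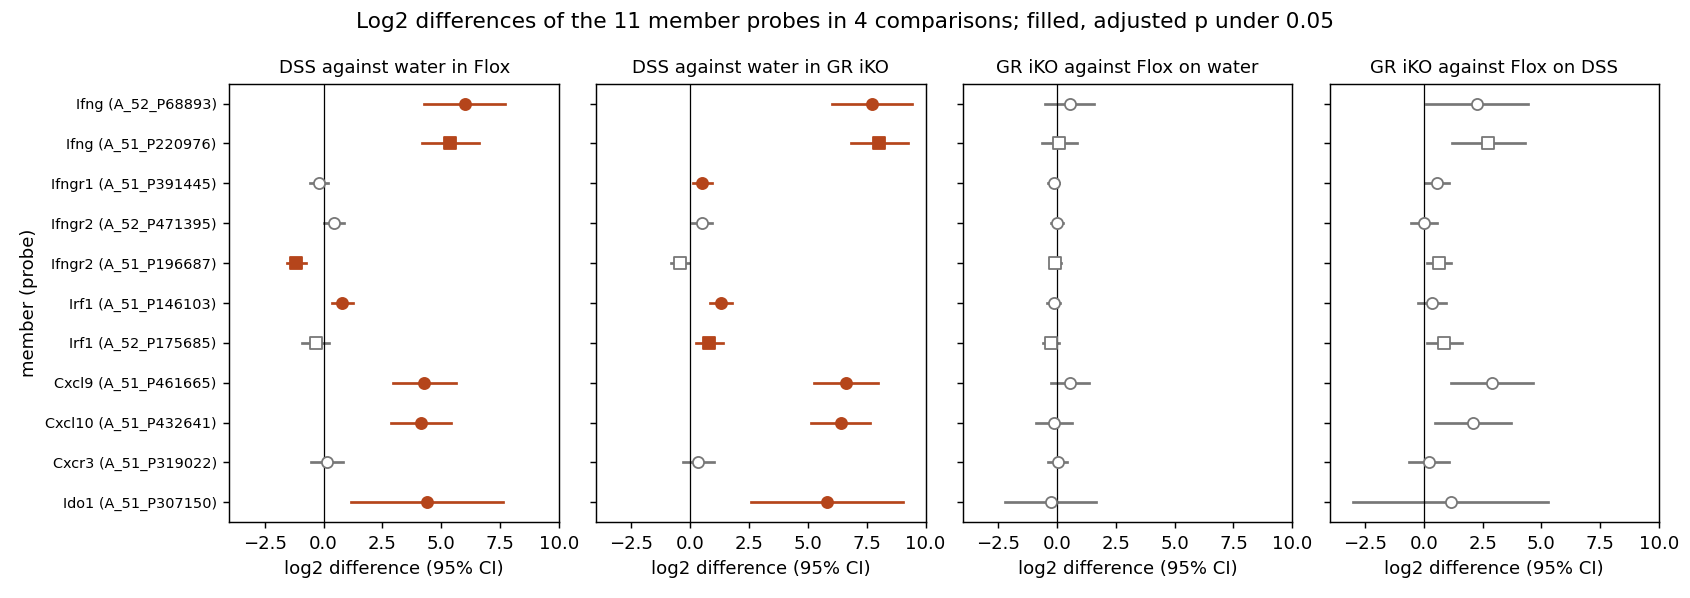
Log2 difference (horizontal axis) with its 95% confidence interval for each of the 11 probes (vertical axis; circles, the brightest probe of a gene; squares, its second probe) in 4 comparisons. Filled red points were called at an adjusted p under 0.05. Calls were made in both DSS comparisons and in neither genotype comparison, and the probes of Ifngr2 lay on opposite sides of 0 in both DSS comparisons.

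Genes that induce Ifng and mark type 1 lymphocytes were called in both directions, beside 47.2% of all probes called in Flox and 38.9% in GR iKO. Of 12 tested, 4 rose in Flox (Hlx by 2.75, Il12rb1 by 1.38, Tbx21 by 1.00, and Il18rap) and 2 fell (Il18 by 1.49 and Il15 by 1.29). In GR iKO 8 rose and 1 fell. Among those that rose were Il12a (2.98, with 1 of 4 water arrays well above background), Il12rb1 (2.27) and Il18rap, while Tbx21, which encodes the master factor of Th1 cells T-bet, rose by 1.67. Il18rap, part of the IL-18 receptor, was not well above background in any mouse on water, so its rise was at least 1.78-fold in Flox, where 2 of 3 DSS arrays measured it, and at least 3.65-fold in GR iKO. Il12a, for the IL-12 subunit p35, differed by 0.68 in Flox (adjusted p = 0.0701). Without Flox DSS replicate 1, 2 of the 12 were called in Flox, and with spike-in scaling 0 were called higher and 8 lower there. Il12rb2 and Eomes were too dim to be tested, and Il12b had no matched probe.

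Other genes known to be induced by interferon-gamma rose almost without exception on DSS, though with spike-in scaling their Flox median was -0.18 and 5 were called each way. Of 29 tested, 26 rose in Flox and 28 in GR iKO and none fell, beside 21.8% and 19.1% of all probes called higher. The medians of these genes were 2.11 and 2.87. In Flox the exceptions were Ciita (0.45), Cd74 (0.66) and Pdcd1lg2 (-0.37), and in GR iKO Pdcd1lg2 (1.58). Acod1, the itaconate-producing enzyme gene, rose by 5.51 and 8.14, and Iigp1 (4.66 and 5.83) and Gbp5 (4.59 and 5.85), which encode GTPases of cell-autonomous defence, also rose. Nos2, for inducible nitric oxide synthase, was at least 8.67-fold higher in Flox and at least 20.0-fold higher in GR iKO. Without Flox DSS replicate 1, 19 of the 29 were called in Flox. Many of these genes also respond to type I interferon and NF-kB.

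Few markers of the cells that make interferon-gamma passed the test with the main scaling. Over all probes, 47.2% in Flox and 38.9% in GR iKO were called in either direction, and 21.8% and 19.1% were called higher. Of 16 tested T and NK cell markers, none rose in Flox and 2 fell (Cd2 by 1.75 and Lck by 0.76), and in GR iKO 1 rose (Gzmb, by 2.67), while 7 of 16 differences in Flox and 15 of 16 in GR iKO were above 0 (medians -0.22 and 0.49). The Flox calls depended on the setting: 4 were called lower without Flox water replicate 1 and 1 without Flox water replicate 2 or Flox DSS replicate 1, spike-in scaling gave 14 lower, and normexp correction gave 2 higher and 0 lower. Cd3e, a defining T cell gene, differed by 0.30 in Flox and 0.26 in GR iKO (adjusted p = 0.546 and 0.628, limma). The mean level of the 16 genes relative to water was -0.31, 0.22 and -0.32 in the DSS-treated Flox mice (replicates 1, 2 and 4) and 0.81, 0.66 and 0.49 in the DSS-treated GR iKO mice (replicates 1, 3 and 4), against -0.59 to 0.65 in Flox and -0.15 to 0.14 in GR iKO on water. The DSS arrays thus lay above all water arrays of their genotype in GR iKO and among them in Flox. Flox DSS replicate 1, highest in Ifng among DSS-treated Flox mice, was thus among the lower mice for these markers.

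Myeloid markers rose with DSS beside the interferon-gamma genes. Of 12 macrophage and monocyte markers, 8 rose in Flox and 10 in GR iKO, led by Ccr2 (2.35 and 2.58) and Itgam (2.11 and 2.65). Of 8 tested neutrophil markers, 6 rose in Flox and all 8 in GR iKO, with medians of 4.35 and 7.02. Of the 9 with a probe, only 1 was well above background on every array and 2 were so on no water array. The sizes of these rises thus rest partly on water levels near background. S100a9 rose by 8.08 and 9.65 and S100a8 by 7.26 and 9.76. Of 12 epithelial markers, 1 rose (Krt20) and 3 fell (Epcam, Krt19 and Cldn7) in Flox, and 1 rose (Krt20) in GR iKO. Over all probes, 47.2% and 38.9% were called in either direction. The epithelial calls in Flox numbered 2 without Flox DSS replicate 1 or Flox water replicate 1 and 1 without Flox DSS replicate 2. With spike-in scaling the macrophage median turned to -0.89 in Flox, while that of neutrophil markers stayed above 0. The mean macrophage marker level relative to water was 0.83 to 1.55 in Flox and 1.14 to 1.91 in GR iKO on DSS. The part of cell composition in the changes of the interferon-gamma genes was not tested.

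On water none of these genes passed the test between genotypes. The log2 difference, GR iKO minus Flox, ranged from -0.27 for Ido1 to 0.56 for Cxcl9. By limma 0 of the 11 probes were called, against 0.0237% of all probes, and 0 had an unadjusted p under 0.05, against 3.32% of all probes. Both Ifng probes were at background in nearly all mice on water, so a genotype difference of Ifng could not be measured there. The 95% confidence interval was -0.25 to 1.37 for Cxcl9, -0.90 to 0.63 for Cxcl10 and -2.22 to 1.68 for Ido1, so a difference of a few fold in Ido1 was not detectable with these arrays.

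On DSS the mean of every gene measured was higher in GR iKO than in Flox, but none passed the threshold, and Ifngr2 turned below 0 with quantile normalization and Cxcr3 with normexp correction. The largest difference was in Cxcl9, at 2.90 (7.47-fold, SE 0.79, adjusted p = 0.104, limma), with no overlap between the groups. Ifng differed by 2.27 (SE 1.00, adjusted p = 0.261) and by 2.74 with its second probe (SE 0.72, adjusted p = 0.0979), and Cxcl10 by 2.11 (SE 0.75, adjusted p = 0.174, limma). Ifngr1 differed by 0.57 (SE 0.23, adjusted p = 0.232, limma), again with no overlap.

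Among the remaining genes the differences by the brightest probe were 1.14 for Ido1 (SE 1.91), 0.37 for Irf1 (SE 0.27), 0.21 for Cxcr3 (SE 0.39) and 0.01 for Ifngr2 (SE 0.25). The second probe of Irf1 gave 0.87 (SE 0.34, adjusted p = 0.206, limma). That of Ifngr2 gave 0.64 (SE 0.23, adjusted p = 0.181, limma), with no overlap between the groups. By limma 0 of the 8 genes and 0 of the 11 probes were called, against 0.0203% of all probes. By the brightest probe 4 of 8 genes had an unadjusted p under 0.05, as did 7 of the 11 probes, against 17.8% of all probes. By the brightest probe the groups did not overlap for 2 of the 8 genes, against 11.2% of all probes higher in this way. The median difference of the 8 genes by the brightest probe was 0.85, and that of all probes 0.03.

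These genotype calls depended on the weighting of the arrays. With all arrays weighted equally, Cxcl9 (adjusted p = 0.0111), Cxcl10 (0.0366) and Ifngr1 (0.0333) were called by limma, as were 13.2% of all probes. With 1 weight per array, Cxcl9 (0.0353) and Ifngr1 (0.0239) were called, as were 15.1% of all probes. Without GR iKO DSS replicate 3, Cxcl9 was called (3.45, adjusted p = 0.0499), as were 2.48% of all probes, and without any other single mouse none of the 8 genes was.

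The difference also varied between slides, 2 of which held a mouse of each DSS group. On slide 1, GR iKO replicate 3 minus Flox replicate 1 gave -0.93 for Ifng, -0.08 for Cxcl10, 0.76 for Cxcl9, -0.28 for Irf1 and -0.65 for Ido1. On slide 4, GR iKO replicate 4 minus Flox replicate 4 gave 5.11, 3.23, 3.70, 1.09 and 4.34 for the same genes. Cxcl9 and Ifngr1 (0.74 and 0.41) were higher in GR iKO on both slides, and so were Ifngr2 (0.10 and 0.24) and Cxcr3 (0.67 and 0.05). With slide as a block over all arrays, the values were 3.03 for Cxcl9 (adjusted p = 0.102), 2.23 for Cxcl10 (0.177) and 2.36 for Ifng (0.196, limma).

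**Figure D3:**
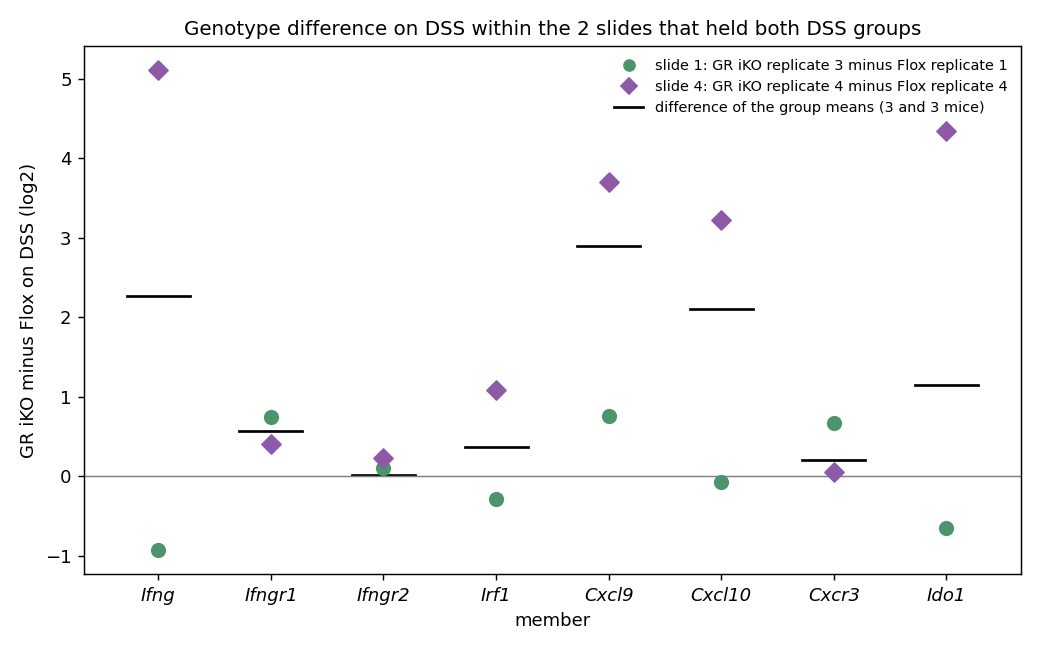
Genotype difference on DSS (vertical axis, GR iKO minus Flox, log2) for the 8 genes (horizontal axis) within the slides that held a mouse of both DSS groups (slide 1, green circles; slide 4, purple diamonds), with the difference of the group means as black lines. For Ifng, Irf1, Cxcl10 and Ido1 the slide 1 pair lay below 0 and the slide 4 pair above it, whereas Cxcl9 and Ifngr1 lay above 0 in both.

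The spread among DSS-treated mice was shared by several of these genes. Flox DSS replicate 1 was the highest of its group for 5 of the 8 genes, and Flox DSS replicate 4 the lowest for 4 (Ifng, Irf1, Cxcl10 and Ido1). In DSS-treated GR iKO mice, replicate 4 was highest for Ifng, Ifngr2, Irf1 and Ido1, and replicate 1 for Cxcl9, Cxcl10 and Cxcr3. On water, Flox replicate 4 was the highest of its group for 7 of the 8 genes. Other interferon-gamma-inducible genes ordered the DSS-treated Flox mice in the same way, with mean levels relative to water of 3.18, 2.45 and 1.28 in replicates 1, 2 and 4, against 3.67, 2.54 and 3.76 in GR iKO replicates 1, 3 and 4.

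Related genes had positive but uncalled genotype differences on DSS. The difference was above 0 for 12 of 12 signalling genes (median 0.44), 10 of 12 inducers (0.71), 28 of 29 other inducible genes (1.00) and 16 of 16 T and NK cell markers (0.83). The median of all probes was 0.03. Genes of a list were measured in the same few mice, so these counts are not independent and carry no test. Among inducers, Il12a stood at 2.22 (adjusted p = 0.0704, limma), but only 1 of 3 Flox DSS arrays measured it well above background. Neutrophil markers differed most, with 8 of 8 above 0 and a median of 2.28, and their mean level relative to water was 3.97 to 4.85 in Flox against 5.88 to 7.48 in GR iKO. By group means, Ngp, a neutrophil granule gene, stood at least 11.6-fold higher in GR iKO. It was not called (adjusted p = 0.177, limma), and this bound leaves out the spread between mice. Epithelial markers had a median of 0.54, and macrophage markers one of 0.17. The part of these cell types in the genotype differences of Cxcl9, Cxcl10 and Ifng was not tested.

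**Figure D4:**
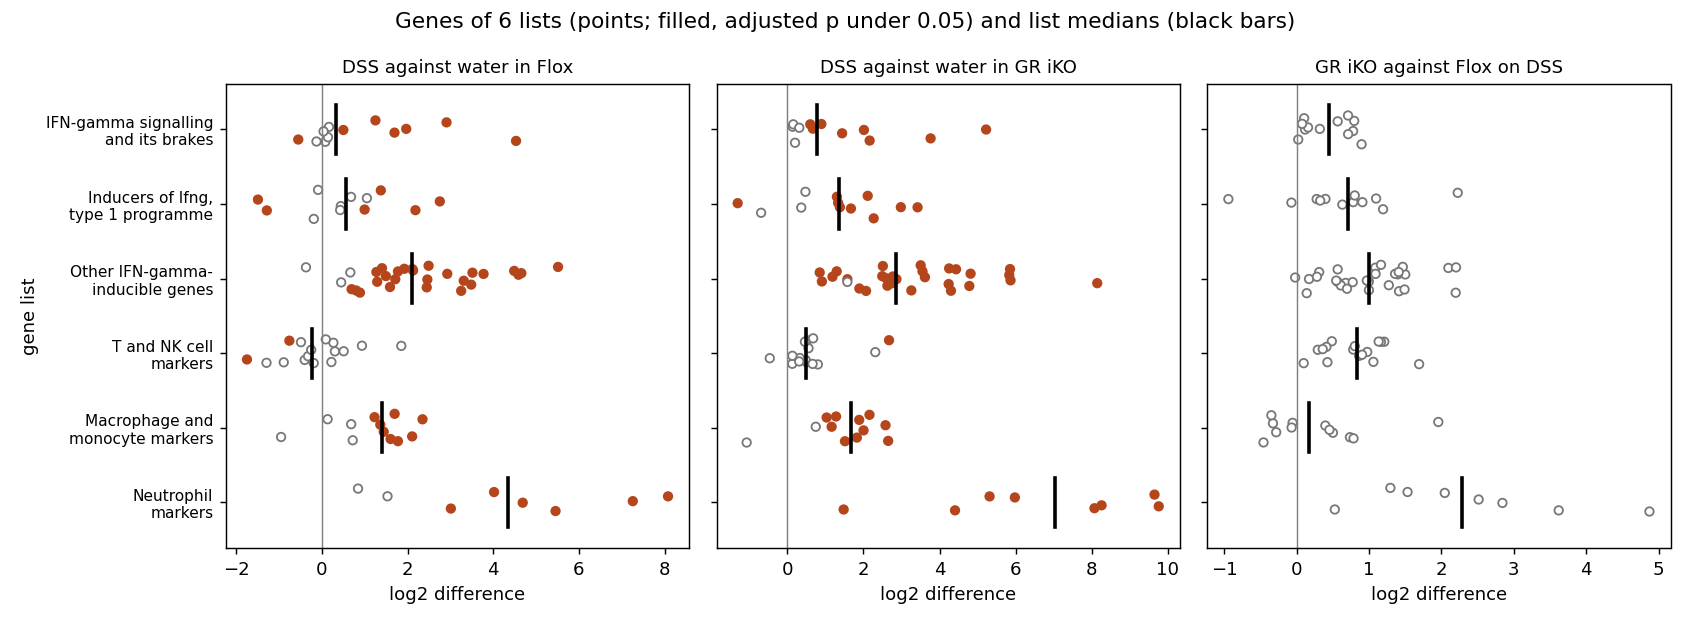
Log2 difference (horizontal axis) of each tested gene (points) in 6 gene lists (vertical axis) in both DSS comparisons and in the genotype comparison on DSS, with list medians as black bars. Filled points were called at an adjusted p under 0.05. The other interferon-gamma-inducible genes were filled almost throughout on DSS, the T and NK cell markers hardly at all, and no gene was filled in the genotype comparison.

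The DSS response itself was not shown to differ by genotype. The interaction, the DSS difference in GR iKO minus that in Flox, was positive for all 8 genes by their brightest probe. It was 2.34 for Cxcl9 (SE 0.88, adjusted p = 0.248), 2.24 for Cxcl10 (SE 0.82, 0.24) and 1.74 for Ifng (SE 1.11, 0.498, limma), whose water levels were mostly at background. By this probe Ifngr2 (0.03) and Cxcr3 (0.19) turned below 0 in some settings. The second probes gave 2.64 for Ifng (SE 0.79, adjusted p = 0.179), 1.13 for Irf1 (SE 0.37, 0.204) and 0.72 for Ifngr2 (SE 0.26, 0.23, limma). None of the 8 genes was called, and 0 of 29523 probes were. An unadjusted p under 0.05 was found for 3 of 8 genes by the brightest probe, 6 of the 11 probes and 14.9% of all probes. With scaling to spike-in spots, where the median of all probes moved to 1.41, 4 of the 8 genes (Ifngr1, Irf1, Cxcl9 and Cxcl10) and 27.1% of all probes were called, and with 1 weight per array 1 gene (Ifngr1) and 10% of all probes.

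The genes whose levels followed Ifng most closely over the 14 arrays were, among 15539 other named genes, Ccl4 (Pearson r = 0.987), Tgm2 (0.985), Ccl3 (0.985), Bcl2l1 (0.984) and Gbp2 (0.983). Cxcl10 stood at rank 36 (0.975), Cxcl9 at rank 55, Irf1 at rank 175 and Ido1 at rank 370, whereas Ifngr1 and Cxcr3 stood at ranks 5508 and 5860. For Cxcl10 the closest were Cd300lf (0.992), Tnfaip2 (0.990), Rnd1 (0.989), Tnfrsf1b (0.989) and Stx11 (0.988), with Cxcl9 at rank 13. The 14 points share the step between water and DSS, so these values describe the pattern and carry no test.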

How the data were processed

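Total RNA (500 ng) of each colon had been labelled with Cy3. The authors read the arrays with Agilent Feature Extraction (12.0.0.7), which gives an intensity per spot, and the submitters' notes also name Partek 6.6. The deposited processed intensity is background-subtracted, and signals near background are replaced by small positive values, which shrinks differences of dim probes. The authors also deposited a table of log2 values, which correlated with the scanner values at 0.998762 or above and was used as an alternative; how it was normalized is not given in the sources used here.

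Control spots (1639 per array) were left out, spots of a probe averaged, and log2 intensities scaled to the 75th percentile of each array. Probes well above background on at least 3 of 14 arrays were tested (29523), and no spot was saturated. Accessions were matched to a RefSeq gene table (GRCm38.p6; 28223 of 29245 matched). The brightest probe stood for a gene. Group means were fitted with limma 3.58.1 (R 4.3.3) over all 14 arrays, with weights of 1.69 for water and 0.497 for DSS arrays estimated by treatment. A bound for a probe not well above background uses the lowest well-measured signal of each array. It compares group means with the main scaling, so it does not cover the spread between mice. The value of a gene list on an array is the mean of its genes relative to the water arrays. Genes of the axis and the 12 lists were chosen with earlier results of these data known. Named from each list were the 3 largest called changes per DSS comparison, any gene called by genotype, and genes in counts of 5 or fewer, and Cd3e, Stat2, Nos2, Ngp and genes given beside these were named after their values were seen. Promoter matches were counted in the RefSeq window table. The alternatives were other scalings, filters, weights and blocks, the normexp correction (offset 50, on the median signal, since the files used here hold no mean signal), and leaving out each mouse. List counts under these settings were added after seeing the data. The tests were checked on simulated data. The number of arrays limits precision.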

Additional observations from a re-analysis of the deposited data

How the results depend on the processing

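The DSS calls of Ifng, Cxcl9 and Cxcl10 in both genotypes kept their direction and side of the threshold in all 26 alternative settings. Over leaving out each mouse, called genes were 3 to 6 in Flox, 4 to 7 in GR iKO, 0 to 1 for genotype on DSS and 0 in each case for genotype on water and the interaction. Equal weights called 3 genes, and 1 weight per array 2, for genotype on DSS; the interaction had 4 with spike-in scaling and 1 with 1 weight per array.

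Spike-in scaling, from 6 spike-in probes, moved the median of all probes to -2.38 (Flox) and -0.93 (GR iKO) for DSS against water, and reversed Ifngr2 (-1.84), Irf1 (-1.49) and Cxcr3 (-2.15) in Flox, Ifngr1 (-0.40), Ifngr2 (-0.43) and Cxcr3 (-0.57) in GR iKO, and Cxcr3 on water (-0.16). Relative to that median, Irf1 in Flox stood at 0.89 and Ifngr1 in GR iKO at 0.53. In the lists, spike-in scaling called 4 fibroblast markers lower in Flox and 0 in GR iKO, and without Flox DSS replicate 1 the called kynurenine genes numbered 3 in Flox. Ido1 in Flox (2.11) and Irf1 in GR iKO (0.40) lost their calls. All other reversals were of uncalled values. For Ido1 between genotypes on water the value turned from -0.27 to 0.44 without Flox water replicate 4. Cxcr3 reversed with normexp correction for genotype on water (-0.0422), on DSS (-0.0497) and in the interaction (-0.00754), and Ifngr2 with quantile normalization (-0.0491 and -0.00834) and the deposited table (-0.0613 and -0.0207) for genotype on DSS and the interaction. Spike-in scaling put the median of all probes at 1.23 for genotype on DSS; normexp correction put it at 0.22 and 0.13 for DSS in Flox and GR iKO and at -0.14 for genotype on DSS, and quantile normalization at -0.15 in Flox. Cxcl10 on water reversed with 1 weight per array (0.0894).

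Without 1 mouse, reversals fell in these ranges: Cxcr3 in Flox -0.11 to 0.35; for genotype on water Ifngr2 -0.12 to 0.0473, Cxcl10 -0.37 to 0.11, Cxcr3 -0.10 to 0.21 and Ido1 -0.80 to 0.44; for genotype on DSS Ifngr2 -0.16 to 0.18; and in the interaction Ifngr2 -0.14 to 0.20 and Cxcr3 -0.0159 to 0.44.

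Replicate numbers are shared between groups, and the deviations of same-numbered mice from their group means correlated at -0.08 to 0.31 over 12 pairs, with 7 of them over 0.1; since not every pair was, the numbers were not taken to pair the mice. With the replicate number as a block, the called genes were 5 in Flox, 6 in GR iKO and 0 elsewhere, and Ifngr2 reversed for genotype on DSS (-0.0473) and in the interaction (-0.0276). The interaction needs all groups, so it had no fit on the compared groups alone. The cause of these shifts was not tested.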

Other observations

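Stromal cells, which can also respond to interferon-gamma, were covered by 2 further lists. All 8 fibroblast markers rose on DSS in both genotypes, with medians of 1.36 in Flox and 1.03 in GR iKO, led by Lum (2.42 and 1.70). Of 7 endothelial markers, 3 rose in Flox (Cdh5, Tie1 and Vwf) and 1 in GR iKO (Cdh5, by 1.56). Over all probes, 21.8% and 19.1% were called higher. With spike-in scaling the Flox medians were -0.93 for fibroblast and -2.01 for endothelial markers. On DSS the genotype difference was above 0 for 1 of 8 fibroblast markers (median -0.29) and 2 of 7 endothelial markers (median -0.26), and none was called by limma.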
